A study of Mus musculus with 192 samples.

Results

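The granin family and the enzymes that cut and trim prohormones were followed as 10 genes, Chga, Chgb, Scg2, Scg3, Scg5, Vgf, Pcsk1, Pcsk2, Pcsk1n and Cpe. They were taken by their gene symbol in the annotation GENCODE vM21 from the 41128 genes of a hippocampal RNA-seq count table, and all 10 were found and described in all 24 sample groups. The clearest pattern lay between genotypes. Chgb was lower in zQ175 than in wild-type (WT) mice in all 12 comparisons, with group means of 63.3 to 79.4% of the WT mean. Pcsk2 and Cpe fell in part of the comparisons, Scg5 rose in several comparisons at 10 months, and Scg3 passed the test nowhere.

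Peptide hormones and neuropeptides are made as larger precursors that travel through the Golgi apparatus into dense-core vesicles, where they are cut and stored until release. Granins are acidic proteins of the vesicle matrix: chromogranin A (Chga), chromogranin B (Chgb) and secretogranin II (Scg2) bind calcium, aggregate and help vesicles form, secretogranin III (Scg3) links granins to the vesicle membrane, and Vgf, a gene induced by neurotrophins and activity, is both a granin and a peptide precursor. The convertases encoded by Pcsk1 and Pcsk2 cut precursors after pairs of basic residues, and carboxypeptidase E (Cpe) removes those residues from the cut ends. Each convertase has a small partner protein: the product of Scg5 is a chaperone that Pcsk2 needs to mature, and the product of Pcsk1n, proSAAS, inhibits the Pcsk1 enzyme. In the hippocampus these genes are expressed in neurons, and Cpe also in astrocytes.

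The zQ175 mouse carries an expanded CAG repeat knocked into its own Htt gene and models Huntington's disease. Per the labels, each regimen held WT and zQ175 mice, and of each genotype 8 untreated mice, 8 given the non-targeting siRNA NTC, 8 given HTT-10150, which targets full-length HTT, and 8 given HTT-634 together with HTT-486 (HTT-634.486), which target HTT1a, a short transcript ending in the first intron. Regimen 2[4]6 stands for treatment at 2 months with tissue taken at 6 months, 6[4]10 for treatment at 6 and tissue at 10 months, and 2.6[8]10 for treatment at both 2 and 6 months and tissue at 10 months. Each of the 24 groups had 8 mice, 4 per sex, so the 4 genotype comparisons of a regimen used different mice.

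Total counts per library ranged from 8441632 to 55955529 in 2[4]6 (median 27722736), 13376471 to 41269383 in 6[4]10 (median 24458656) and 12999992 to 65748954 in 2.6[8]10 (median 16523749). Htt, the target of HTT-10150, was lower with HTT-10150 than with NTC in zQ175 mice by log2 -0.44 ± 0.11 (standard error, SE) in 2[4]6, -0.69 ± 0.13 in 6[4]10 and -0.92 ± 0.11 in 2.6[8]10, and all 3 passed edgeR's quasi-likelihood test (adjusted p = 0.0244, 0.00542 and 6.16e-08). In WT mice the changes were -0.95 ± 0.12, -0.55 ± 0.13 and -1.27 ± 0.11, and the one in 6[4]10 did not pass (edgeR adjusted p = 2.84e-07, 0.16 and 6.03e-12). Xist and Y-linked genes both went against the labelled sex in 2 libraries, female_4 and male_4 of zQ175 HTT-10150 in 6[4]10. In female_2 of WT NTC in 2.6[8]10 only Xist did, at 0.713 CPM, with Y-linked genes also low at 0.634. One library did not look like hippocampus. Female_1 of WT HTT-10150 in 2.6[8]10 had a summed level of 7 striatal markers of 6447 counts-per-million (CPM), against 125 to 354 in the other 191 libraries, with Drd1 at 286 (1.85 to 13.7 in the others), while C1ql2, a dentate granule cell marker, was at 1.63 (21.7 to 165). That library had 290 CPM of Chgb, 325 of Scg2, 382 of Pcsk2, 178.1 of Scg5 and 1928 of Cpe, each outside the range of the other 7 mice of its group (643 to 766, 157 to 183, 264 to 285, 129.1 to 144.6 and 2539 to 2782). It widens the spread that all tests of 2.6[8]10 share, so the genotype and siRNA tests of 2.6[8]10 that are named below are given with all 64 libraries and, where a call or value moved, again without it, a choice made after seeing the data.

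Per kilobase of exon, Cpe stood far above the other genes and Pcsk1 far below. The median over 192 mice was 1011.8 CPM per kilobase for Cpe, 218 for Pcsk1n and 211 for Chgb. Scg5 (85.5), Scg3 (81.8), Vgf (78.9) and Scg2 (69.7) followed, then Chga (37.1) and Pcsk2 (33.5), and Pcsk1 was at 1.91. On this scale Pcsk2 was thus the more abundant convertase transcript. The group means of Scg5, Scg3, Vgf and Scg2 overlapped (77.9 to 93.6, 76.3 to 85.4, 67.2 to 87.7 and 57.1 to 77), as did those of Pcsk1n and Chgb (187 to 247.5 and 152 to 266) and of Chga and Pcsk2 (33.9 to 39.2 and 28.4 to 37), so the order within these 3 sets was not fixed. Pcsk1, with as few as 64 counts in a library, was the least precisely measured gene.

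**Figure D1:**
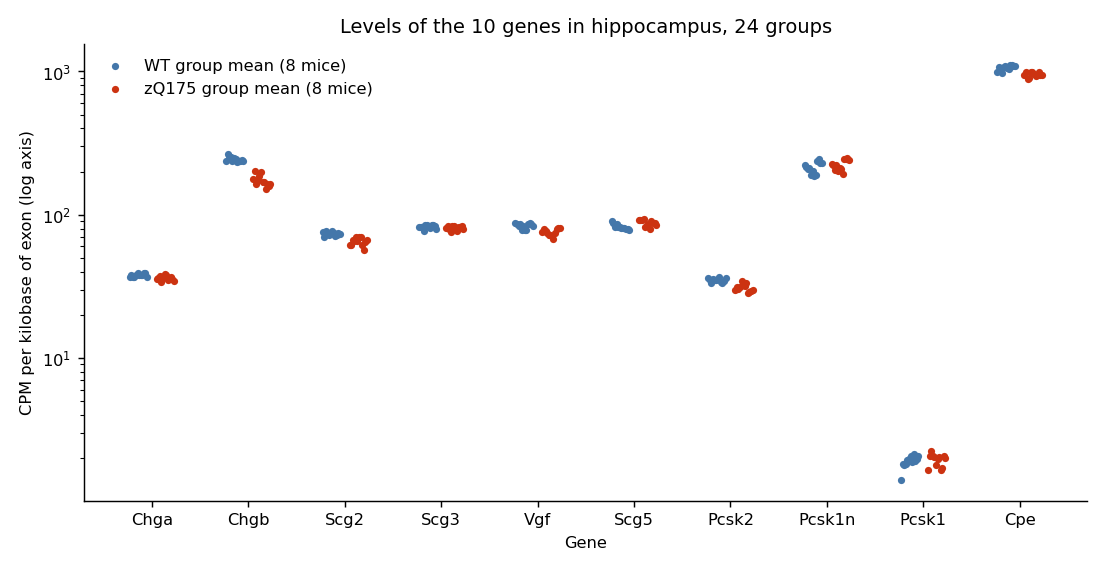
Mean level of each gene in each of the 24 groups, in CPM per kilobase of exon on a log axis, with 1 point per group of 8 mice, WT in blue and zQ175 in red. Cpe lies highest and Pcsk1 lowest, and only for Chgb do the WT and zQ175 points separate on this axis.

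Several granin genes are known targets of the transcription factor CREB, which binds the cyclic AMP response element TGACGTCA. In the RefSeq promoter windows of GRCm38.p6 (250 bases before to 50 bases after the start), which were at hand for 8 of the 10 genes and lacked Vgf and Cpe, the full element was found in Chgb, Scg2 and Pcsk1, starting 72, 68 and 78 bases upstream of the start site. Chga held TGACGTAA at 44 bases. The letters TGACGTCA, which read the same on both strands, occurred in 1.79% of all 32851 windows, and the shorter core TGACG, which the full element contains, occurred on either strand in 20.8%. That core was found in 7 of the 8 windows of these genes, all but Pcsk1n. The 30 bases around each element are shown because the same 8 letters stand in Chgb and Scg2, which are lower in zQ175 below, and in Pcsk1, which mostly is not, while the bases beside them differ. Chga, which holds the core but not the full element, is shown for comparison. They lie at chr12:102554886-102554915 (plus strand) for Chga, chr2:132781559-132781588 (plus) for Chgb, chr1:79440076-79440105 (minus) for Scg2 and chr13:75089768-75089797 (plus) for Pcsk1, and capitals mark the element.
Chga: gggcggtcctaTGACGTAAtttcctgggtg
Chgb: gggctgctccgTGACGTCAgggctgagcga
Scg2: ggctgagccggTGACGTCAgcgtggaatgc
Pcsk1: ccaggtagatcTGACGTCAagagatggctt
Like Chga, the other 4 windows held no full element. Of these, Scg3 and Pcsk2 held 1 core each, Scg5 held 3 and Pcsk1n 0. Counted on both strands, so that a full element counts as 2, Chgb and Scg2 held 2 each, Pcsk1 3 and Chga 1. Whether these letters or the bases beside them bear on any change of level was not tested. A match is a description of the letters and not of binding.

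Chromogranin B showed the largest and most regular difference. In untreated mice of 2[4]6, Chgb ran from 564 to 703 CPM (median 632) in WT and from 421 to 576 (median 454) in zQ175, and 7 of 8 zQ175 mice lay below every WT mouse. At 10 months the groups were apart: 595 to 713 (median 659) against 417 to 483 (median 448) in 6[4]10, and 571 to 795 (median 702) against 390 to 543 (median 482) in 2.6[8]10. The log2 change in untreated mice was -0.45 ± 0.06, -0.53 ± 0.05 and -0.54 ± 0.09 (SE, edgeR adjusted p = 1.74e-06, 1.29e-11 and 3.13e-05), and -0.53 ± 0.06 (3.19e-09) in 2.6[8]10 without the library with striatal markers.

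The other arms showed the same direction in other mice. Many of these shared a number in their library names with mice of another arm, and each number held a single genotype. With NTC, mean Chgb was 667 ± 75.4 CPM (SD, n = 8) in WT and 466 ± 40.6 in zQ175 in 2[4]6, 663 ± 36.7 and 432 ± 39.7 in 6[4]10, and 709 ± 49.8 and 449 ± 40.2 in 2.6[8]10, with no overlap in any of the 3. The log2 changes were -0.52 ± 0.06, -0.61 ± 0.05 and -0.66 ± 0.09 (edgeR adjusted p = 5.8e-08, 8.69e-14 and 7.68e-07), the last being -0.65 ± 0.06 (6.16e-12) without the library with striatal markers. Under HTT-634.486 they were -0.34 ± 0.06, -0.53 ± 0.05 and -0.39 ± 0.09, and under HTT-10150 -0.35 ± 0.06, -0.63 ± 0.05 and -0.43 ± 0.09, all called (edgeR adjusted p between 2.57e-14 and 0.0113). The last of these holds the library with striatal markers among its WT mice and became -0.53 ± 0.06 (1.92e-08) without it. With all libraries, the Chgb call under HTT-634.486 in 2.6[8]10 was lost without replicate 2, 3 or 4 (edgeR adjusted p = 0.199, 0.0696 and 0.136). That under HTT-10150 was lost without replicate 3 (0.0727) and with only the compared groups fitted (0.164). Without the library with striatal markers the HTT-634.486 change was -0.39 ± 0.06 (edgeR adjusted p = 3.82e-05). Every zQ175 mouse lay below every WT mouse in 9 of the 12 comparisons, and in 10 without that library.

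**Figure D2:**
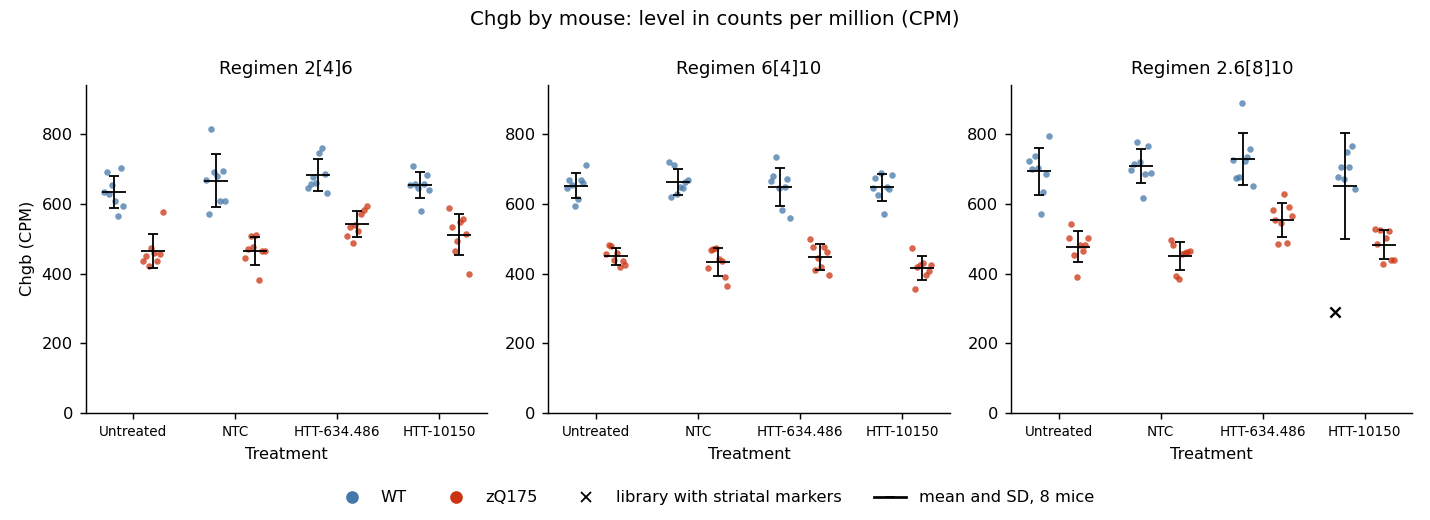
Chgb level in CPM for each mouse, by treatment and regimen, WT in blue and zQ175 in red, with the mean and SD of 8 mice in black. The zQ175 mean lies below the WT mean in every pair of groups, the points are fully apart in 9 of the 12 pairs, and the cross at 290 marks the WT library with striatal markers.

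Scg2 was lower on average in zQ175 in all 12 comparisons (79.3 to 96.7% of WT), but the mice always overlapped. At 10 months in 6[4]10, untreated WT mice ran from 168.8 to 206 CPM (median 183.9) and untreated zQ175 mice from 150 to 184.03 (median 168.7). With HTT-634.486 the ranges were 148.2 to 221 (median 176.2) and 130 to 177 (median 140), and 7 of 8 zQ175 mice were below every WT mouse. Scg2 was called there (log2 -0.33 ± 0.07, edgeR adjusted p = 0.000284) and, in the same regimen, under HTT-10150 (-0.22 ± 0.07, 0.0159), but not in untreated (-0.13 ± 0.07, 0.23) or NTC mice (-0.18 ± 0.07, 0.0524). The NTC change, near the threshold, was called at -0.18 under DESeq2 (adjusted p = 0.0434), with the replicate block (0.0478) and with only the compared groups fitted (0.00721), where the untreated change was called too (0.0416), and at -0.23 without replicate 3 (0.0232). The HTT-10150 call was lost without the 2 libraries of that group whose sex-linked genes went against their labels (-0.19 ± 0.07, 0.066). It was lost too without replicate 1 or 4 (edgeR adjusted p = 0.0762 and 0.109) and with only the compared groups fitted (0.0691).

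In 2.6[8]10 the Scg2 calls turned on 1 library. With all libraries the gene was called only under HTT-10150 (log2 -0.29 ± 0.08, edgeR adjusted p = 0.00828), where the WT group contains the library with striatal markers. Without it the change there was -0.13 ± 0.05 (0.0871) and not called, whereas untreated (-0.15 ± 0.05, 0.0191), NTC (-0.19 ± 0.05, 0.00314) and HTT-634.486 mice (-0.18 ± 0.05, 0.0164) were called.

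Vgf, Chga and Scg3 gave little or no difference. Vgf averaged lower in zQ175 in all 12 comparisons, at the least 86.6% of WT, and was called in 2 with all libraries, both in 2.6[8]10: -0.21 ± 0.07 in untreated mice (edgeR adjusted p = 0.0297) and -0.20 ± 0.07 under HTT-10150 (0.044). Without the library with striatal markers only the first was called (0.0271; the second had 0.0979), and with all libraries the untreated call was lost whichever replicate number was left out (edgeR adjusted p from 0.0604 to 0.189). Its untreated mice ran from 231.4 to 280 CPM (median 257) in WT and 192 to 264 (median 216) in zQ175, so the groups overlapped. Chga was called once, in the same untreated mice, at -0.12 ± 0.04 (0.0491), and not without that library (-0.11 ± 0.04, 0.0644). For Scg3, the changes in all 12 comparisons lay between -0.07 and 0.02 and none was called.

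Of the convertases, Pcsk2 fell and Pcsk1 mostly gave no call. In untreated mice Pcsk2 ran from 271 to 327 CPM (median 289) in WT and 241.8 to 280 (median 264) in zQ175 in 2[4]6, from 243.97 to 322 (median 285) and 225 to 243.1 (median 236.1) in 6[4]10, and from 271 to 299 (median 281) and 230.98 to 279 (median 243.8) in 2.6[8]10. The 6[4]10 groups were just apart and the others overlapped. The log2 changes were -0.15 ± 0.04, -0.27 ± 0.05 and -0.18 ± 0.05 (edgeR adjusted p = 0.0274, 3.67e-05 and 0.0118), and -0.18 ± 0.04 (0.00144) in 2.6[8]10 without the library with striatal markers.

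With NTC, Pcsk2 changed by log2 -0.16 ± 0.04 (edgeR adjusted p = 0.0169) in 2[4]6 and -0.23 ± 0.05 (0.000283) in 6[4]10, both with no overlap between genotypes. In 2.6[8]10 it was -0.14 ± 0.05 (0.0612), and -0.14 ± 0.04 (0.0177) without the library with striatal markers. Pcsk2 was also called in 2.6[8]10 under HTT-10150, with the groups apart (-0.29 ± 0.05, 0.000104, and -0.21 ± 0.04, 0.000803, without the library). Under HTT-634.486 it was not called with all libraries (-0.16 ± 0.05, 0.0792) but was without that library (-0.16 ± 0.04, 0.0133). With only the compared groups fitted, the HTT-10150 call was lost (edgeR adjusted p = 0.0944) and the HTT-634.486 change was called (0.0171). All 4 comparisons of 6[4]10 were called (-0.21 to -0.27). In 2[4]6 the mice on HTT-634.486 (-0.10 ± 0.04, 0.258) and HTT-10150 (-0.01 ± 0.04, 0.951) were not called. The test of whether the HTT-10150 change against NTC differed between genotypes gave log2 0.15 ± 0.06 for Pcsk2 in 2[4]6 (edgeR adjusted p = 0.266), so a difference between those arms was not shown. Leaving out the mice of 1 replicate number at a time, the untreated and NTC calls of Pcsk2 in 2[4]6 were each lost in 3 of 4 cases, as were the Cpe calls under HTT-634.486 and HTT-10150 there and the untreated Pcsk2 call in 2.6[8]10 with all libraries.

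Pcsk1 was called in 1 of 12 comparisons, under HTT-10150 in 6[4]10: 10.2 to 15.6 CPM (median 11.4) in WT and 4.91 to 13 (median 9.51) in zQ175, a log2 change of -0.37 ± 0.13 (edgeR adjusted p = 0.0476). Without the 2 libraries against their labels it was -0.29 ± 0.14 (0.181). The call was lost too without replicate 1, 2, 3 or 4 (edgeR adjusted p = 0.0725, 0.121, 0.153 and 0.106). It was also lost with no filter on low counts (0.0651) and with only the compared groups fitted (0.132). Across the 12 comparisons the zQ175 mean was lower in 5 and higher in 7. The intervals are wide: in untreated 2[4]6 mice the change was 0.10, with a 95% interval of -0.16 to 0.37.

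The partner of Pcsk2 moved the other way. Scg5 had the higher mean in zQ175 in 10 of 12 comparisons and was called in all 4 of 6[4]10, with log2 changes of 0.13 ± 0.04, 0.15 ± 0.04, 0.15 ± 0.04 and 0.17 ± 0.04 in untreated, NTC, HTT-634.486 and HTT-10150 mice (edgeR adjusted p = 0.0371, 0.011, 0.011 and 0.00407). In untreated 6[4]10 mice the range was 106 to 134 CPM (median 122) in WT and 126 to 142.5 (median 134) in zQ175, with 4 of 8 zQ175 mice above every WT mouse. In 2.6[8]10 it was called with NTC (0.16 ± 0.04, 0.0124), and without the library with striatal markers (0.17 ± 0.04, 0.000793) also in untreated mice (0.12 ± 0.04, 0.0166). These calls turned on single replicate numbers: in 6[4]10 the untreated one was lost without replicate 1, 2 or 4 (edgeR adjusted p = 0.127, 0.149 and 0.193) and with no filter on low counts (0.077), the NTC one without replicate 1 or 4 (0.0596 and 0.0671), that under HTT-634.486 without replicate 3 (0.103) and that under HTT-10150 without replicate 2 (0.181). The NTC call in 2.6[8]10 was lost without replicate 2 or 3 (0.137 and 0.0984). In 2[4]6 no Scg5 comparison was called, and the untreated change was -0.00 ± 0.05.

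Because both genes were read in the same library, their ratio is free of library scaling. The mean log2 ratio of Scg5 to Pcsk2 counts in untreated mice was -1.21 ± 0.07 (SD, n = 8) in WT and -1.07 ± 0.09 in zQ175 in 2[4]6, -1.22 ± 0.07 and -0.81 ± 0.06 in 6[4]10, and -1.06 ± 0.08 and -0.76 ± 0.05 in 2.6[8]10. In both 10-month regimens all 8 untreated zQ175 mice lay above every WT mouse. The differences of 0.15, 0.40 and 0.30 passed an exact two-sided permutation test (adjusted p over 12 tests = 0.00249, 0.000622 and 0.000622). With NTC they were 0.25, 0.39 and 0.30, with 7, 8 and 7 of 8 zQ175 mice above every WT mouse (exact permutation test, adjusted p = 0.00112, 0.000622 and 0.000932). This test took no covariate and treated all mice as exchangeable. That includes mice sharing a number in their library names, and each such number held a single genotype.

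Pcsk1n, the inhibitor gene, was not called in any comparison, although its mean was higher in zQ175 in 11 of 12 (98.9 to 110.7% of WT). The log2 ratio of Pcsk1n to Pcsk1 did not pass in any of its 6 tests (exact permutation test, adjusted p between 0.0693 and 0.723), with differences from -0.33 to 0.21.

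Cpe fell by a small but regular amount. In untreated mice it ran from 2564 to 3095 CPM (median 2671) in WT and 2245 to 2554 (median 2461) in zQ175 in 2[4]6, and from 2717 to 2921 (median 2865) and 2396 to 2635 (median 2413) in 6[4]10, both without overlap. In 2.6[8]10 the ranges of 2299 to 2799 (median 2587) and 2157 to 2513 (median 2355) overlapped. The log2 changes were -0.16 ± 0.03, -0.21 ± 0.04 and -0.13 ± 0.05 (edgeR adjusted p = 0.0011, 1.23e-05 and 0.0506), the last being -0.13 ± 0.04 (0.0175) without the library with striatal markers. With NTC they were -0.14 ± 0.03, -0.20 ± 0.04 and -0.25 ± 0.05, all called (0.00471, 1.64e-05 and 0.000109), the last being -0.24 ± 0.04 (4.2e-06) without that library. Cpe was called in all 8 comparisons of the single-treatment regimens 2[4]6 and 6[4]10, and in 2.6[8]10 not under HTT-634.486 or HTT-10150, with or without that library. In 2[4]6 the NTC call was lost without replicate 1 or 3 (edgeR adjusted p = 0.125 and 0.0607). The HTT-634.486 and HTT-10150 calls there were lost with no filter on low counts (edgeR adjusted p = 0.0844 and 0.144). With only the compared groups fitted they were lost too (0.122 and 0.0666).

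**Figure D3:**
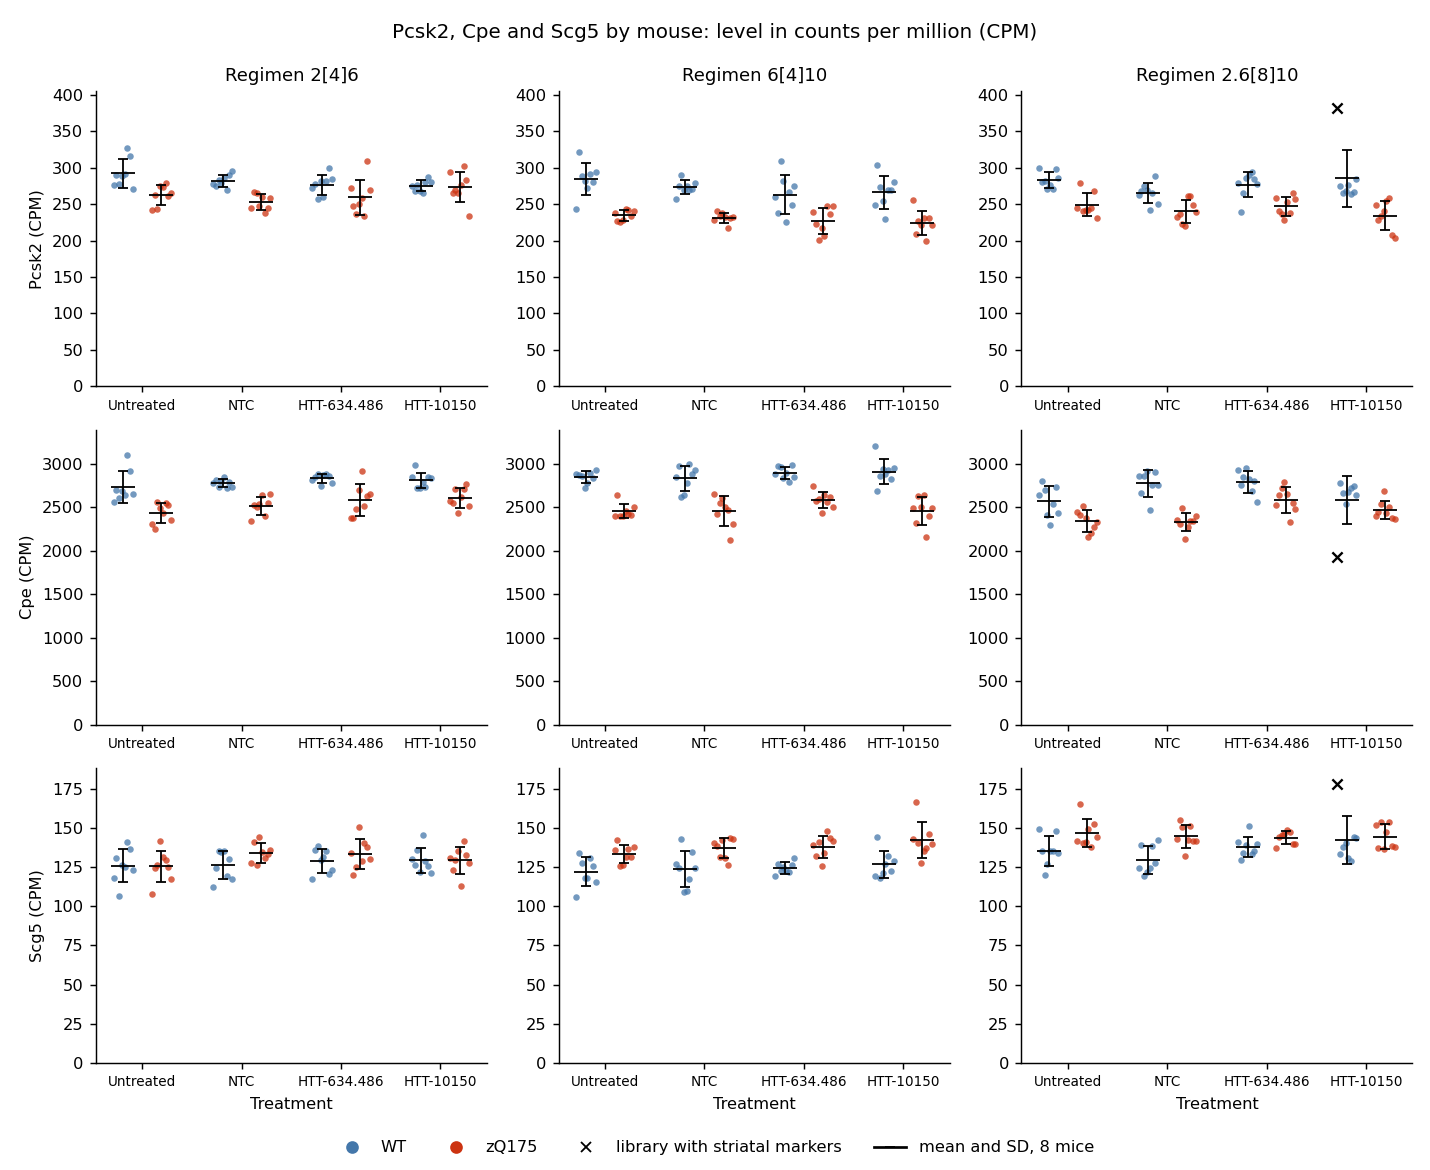
Levels of Pcsk2, Cpe and Scg5 in CPM for each mouse, by treatment and regimen, WT in blue and zQ175 in red, with mean and SD of 8 mice. Pcsk2 and Cpe are lower and Scg5 is higher in zQ175 in the middle column (6[4]10), and the crosses mark the WT library with striatal markers (382, 1928 and 178.1).

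Counts of called genes were read against the share of all genes called. In 2[4]6, of the 10 genes 3 were called in untreated mice (4.15% of all 16575 genes tested), 3 with NTC (5.23%), 2 under HTT-634.486 (2.14%) and 2 under HTT-10150 (6.59%), all lower in zQ175. In 6[4]10 the counts were 4 (11.5% of 16374 genes), 4 (14.7%), 5 (17.1%) and 6 (15.3%), with Scg5 the only one raised. In 2.6[8]10 they were 4 (11.1% of 15852 genes), 3 (10.4%), 1 (1.96%) and 4 (9.11%), and without the library with striatal markers 6 (16.4% of 15904 genes), 5 (15.1%), 3 (4.54%) and 2 (7.92%). The median log2 change of the 10 genes was -0.11, -0.06 and -0.13 in untreated mice of the 3 regimens, where that of all genes tested was between 0.00 and 0.01. Since tissue was measured in bulk, fewer cells of a type and less RNA per cell cannot be told apart in any of these values.

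**Figure D4:**
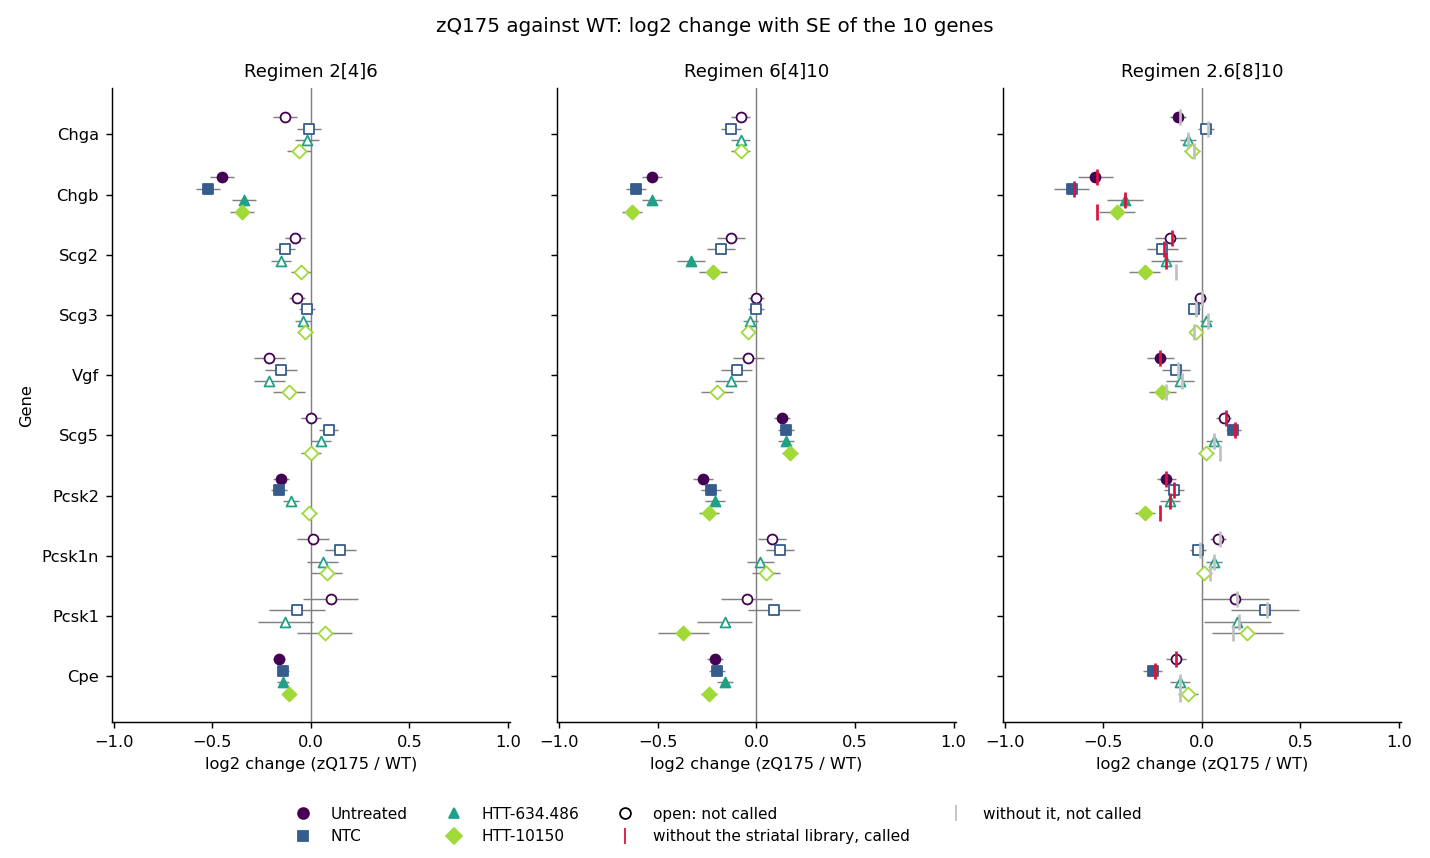
Log2 change of zQ175 against WT (horizontal axis) for the 10 genes in the 3 regimens, with the SE as bars, 1 symbol per treatment, filled where called (adjusted p under 0.05) and open where not, and vertical ticks in the right panel for the values without the library with striatal markers. Chgb is the leftmost gene in each panel, between -0.34 and -0.66.

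The genotype effect was not called different between regimens for any of the 10 genes. In a model of all 192 libraries, no member's untreated effect in 6[4]10 (0.0481% of 16627 genes called) or in 2.6[8]10 (0.138%) differed from that in 2[4]6 by edgeR, with 1 and 0 members at an unadjusted p under 0.05. DESeq2 called 0 as well, as did limma-voom with the number in the library name as a random block, the only form in which limma-voom was run here and below, and edgeR without the library with striatal markers. The Chgb effect differed by log2 -0.09 ± 0.10 in both, and that of Scg5 by 0.14 ± 0.06 and 0.12 ± 0.06. Age and regimen cannot be told apart from any difference in preparation between them. Within a regimen, the libraries' names carry a number whose meaning the labels do not give. Each number (22, 19 and 21 of them in 2.6[8]10, 2[4]6 and 6[4]10, with 1 to 6 libraries each) held a single genotype, so it is nested in the genotype comparison, and libraries that shared it deviated together weakly (mean r = 0.113, 0.049 and 0.11). With it as a random block in limma-voom, 42 of the 44 calls of a gene in a comparison held, and both that were lost were of Chga (untreated 2.6[8]10, adjusted p = 0.0526, and sex in 2[4]6, 0.0757).

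The siRNAs were compared with NTC to ask whether siRNAs against HTT or HTT1a moved these genes. HTT1a itself was not measured here. Htt counted as a whole gene was not called under HTT-634.486 in either genotype. Its log2 changes in zQ175 mice were -0.01 ± 0.11 in 2[4]6, -0.07 ± 0.13 in 6[4]10 and -0.02 ± 0.11 in 2.6[8]10. In zQ175 mice no member was called with all libraries under HTT-10150 (3.57% of all genes called in 2[4]6, 0.0672% in 6[4]10, 0.871% in 2.6[8]10) or under HTT-634.486 (0.0302%, 0.959% and 2.04%). At an unadjusted p under 0.05, edgeR counted 2, 1 and 2 members under HTT-10150 and 1, 3 and 4 under HTT-634.486. Of all 16575, 16374 and 15852 genes tested, 3341, 1109 and 1830 had such a p under HTT-10150. Under HTT-634.486 these were 1038, 2773 and 2204. DESeq2 and limma-voom each called 2 members, Chgb and Cpe, under HTT-634.486 in 2.6[8]10 and 0 in the other 5 comparisons. Without the library with striatal markers, 2.6[8]10 gave 0 members under HTT-10150 (2.12% of all genes) and 2 under HTT-634.486 (4.36%).

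Those 2 were Chgb and Cpe, both raised towards the WT level. Chgb in 2.6[8]10 zQ175 mice ran from 383 to 496 CPM (median 460) with NTC and from 486 to 627 (median 559) with HTT-634.486, so the groups overlapped only at their edges, while WT NTC mice ran from 618 to 778. The change was log2 0.31 ± 0.09 with all libraries (edgeR adjusted p = 0.0596) and 0.31 ± 0.06 without (0.000903). Cpe ran from 2129 to 2486 (median 2342) with NTC and 2331 to 2794 (median 2590) with HTT-634.486, a change of 0.16 ± 0.05 (0.0593) and 0.16 ± 0.04 (0.0101). Neither compared group holds the omitted library, which enters these tests only through the shared scaling and spread.

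In the other regimens Chgb changed under HTT-634.486 by 0.22 ± 0.06 in 2[4]6 (edgeR adjusted p = 0.371; 382 to 512 CPM with NTC and 488 to 595 with the siRNA pair) and 0.06 ± 0.05 in 6[4]10 (0.626). Under HTT-10150 it changed by 0.14 ± 0.06, -0.05 ± 0.05 and 0.11 ± 0.09 in 2[4]6, 6[4]10 and 2.6[8]10, none called. The siRNAs were not called different from each other for any member in zQ175 mice (11.7%, 0.116% and 0.208% of all genes called, and 0.377% in 2.6[8]10 without the library). At an unadjusted p under 0.05 there were 0, 2 and 1 members by edgeR, beside 4366 of 16575, 1408 of 16374 and 922 of 15852 genes. DESeq2 and limma-voom called 0 members. For Chgb HTT-10150 minus HTT-634.486 was -0.08 ± 0.06, -0.11 ± 0.05 and -0.20 ± 0.09. Pcsk1 had negative values under HTT-10150 at 10 months, -0.33 ± 0.13 (0.629) and -0.45 ± 0.17 (0.251), that did not pass.

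**Figure D5:**
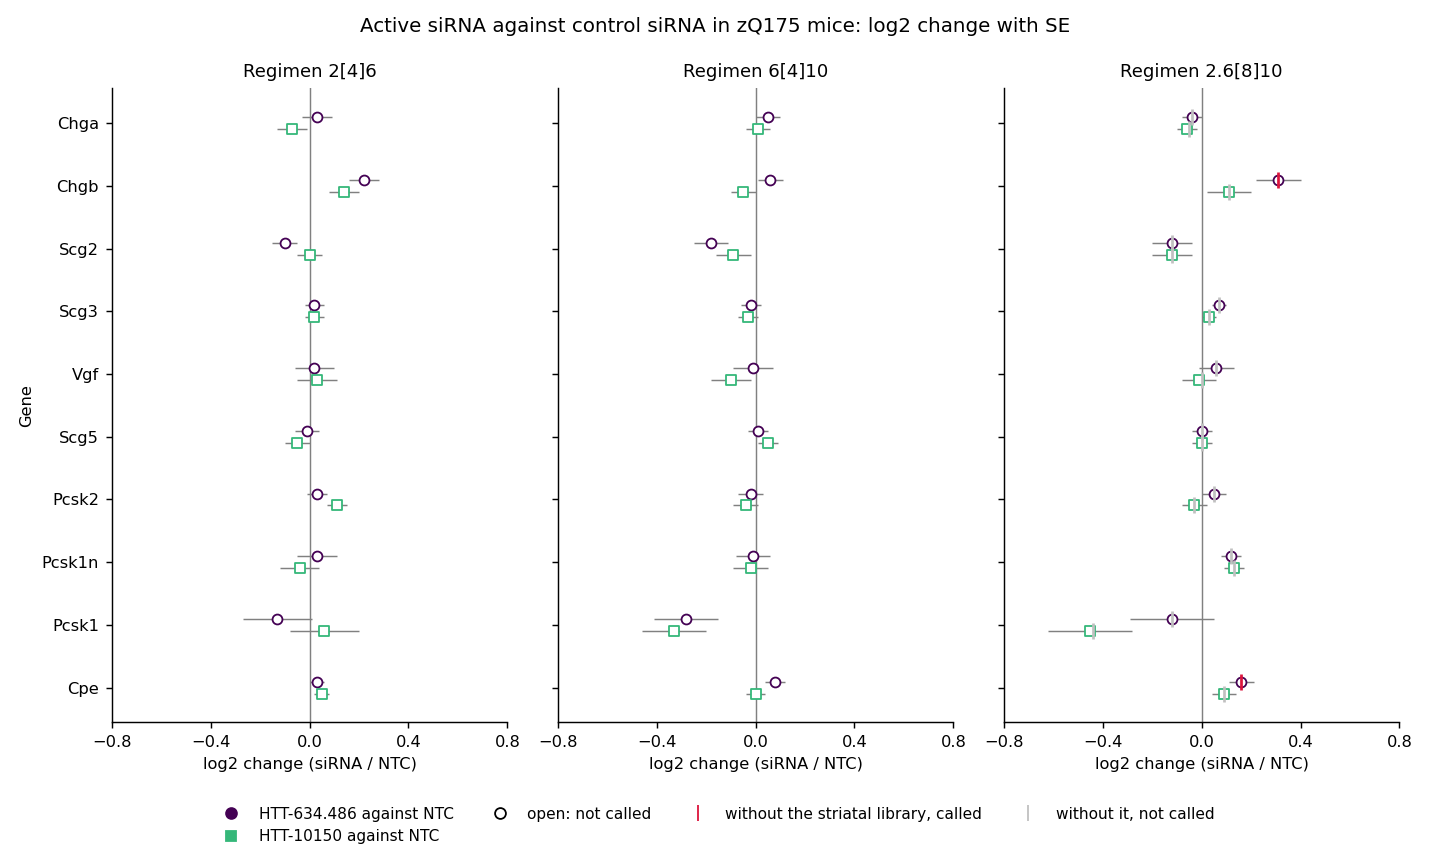
Log2 change of each active treatment against NTC in zQ175 mice (horizontal axis) for the 10 genes and 3 regimens, with the SE as bars, open symbols for values not called, and vertical ticks for the values without the library with striatal markers. In 2.6[8]10 the ticks of Chgb and Cpe under HTT-634.486, at 0.31 and 0.16, are the only called ones.

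In WT mice no member was called under HTT-10150 (0.0664%, 0.0183% and 3.41% of all genes in the 3 regimens, and 1.66% in 2.6[8]10 without the library) or HTT-634.486 (0.0121%, 0.0244% and 0.751%, and 2.07%). At an unadjusted p under 0.05 edgeR counted 0, 0 and 4 members under HTT-10150 and 0, 0 and 1 under HTT-634.486. Of all 16575, 16374 and 15852 genes tested, 980, 1002 and 2758 had such a p under HTT-10150. Under HTT-634.486 these were 642, 1259 and 1824. DESeq2 called 0 members in all 6. The limma-voom fit with the library-number block called 1, Scg5, under HTT-10150 in 2.6[8]10 (0.14, adjusted p = 0.0477). For Chgb the HTT-634.486 change in WT was 0.03 ± 0.06, -0.03 ± 0.05 and 0.05 ± 0.09. The test of whether the siRNA effect differed by genotype called no member either, for HTT-10150 (0%, 0% and 0.0126%, and 0.00629% without the library) or HTT-634.486 (0%, 0% and 0.00631%, and 0.0440%). At an unadjusted p under 0.05 there were 1, 1 and 2 members for HTT-10150, beside 2191, 811 and 945 of all genes. For HTT-634.486 there were 1, 0 and 2 members, beside 452, 1013 and 799 genes. DESeq2 and limma-voom called 0 members. The Chgb interaction with HTT-634.486 in 2.6[8]10 was 0.27 ± 0.13 with all libraries (edgeR adjusted p = 0.971) and 0.26 ± 0.09 without the library (0.43), so a rise in zQ175 beyond that in WT was not shown.

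NTC itself called no member against untreated mice, in zQ175 (0.0302%, 0% and 1.02% of all genes, and 2.00% in 2.6[8]10 without the library) or in WT (0%, 0% and 0.694%, and 1.69%). At an unadjusted p under 0.05 edgeR counted 3, 0 and 2 members in zQ175 and 0, 0 and 2 in WT. Of all 16575, 16374 and 15852 genes tested, 2512, 612 and 1698 had such a p in zQ175 and 614, 1244 and 1816 in WT. DESeq2 called 0 members in all 6. The limma-voom fit with the library-number block called 1, Chga (adjusted p = 0.0486), in zQ175 mice of 2.6[8]10. Chga in zQ175 mice of 2.6[8]10 had the smallest adjusted p of these, 0.14 ± 0.04 (edgeR adjusted p = 0.0903), with 81.8 to 102.2 CPM in untreated and 89.2 to 112 in NTC mice.

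Between sexes, 3 of the 10 genes were called in 2[4]6 (6.71% of all genes), all higher in females. None was called in 6[4]10 (1.15%) or 2.6[8]10 (1.68%, and 2.38% without the library), where DESeq2 and limma-voom called 0. There 4 and 1 members had an unadjusted p under 0.05 by edgeR, beside 2330 of 16374 and 2330 of 15852 genes. In 2[4]6 Vgf was 0.14 ± 0.04 higher on the log2 scale in females, Scg2 0.10 ± 0.03 and Chga 0.09 ± 0.03 (edgeR adjusted p = 0.0204, 0.0121 and 0.0446). When the mice of 1 replicate number were left out, 0 or 1 members were called. In the regimens without a call the same genes had values of 0.11 ± 0.04, 0.09 ± 0.03 and 0.06 ± 0.03 in 6[4]10 and 0.09 ± 0.03, 0.07 ± 0.04 and 0.04 ± 0.02 in 2.6[8]10, where Scg2 was at 0.04 ± 0.02 without the library with striatal markers. Chgb, Pcsk2 and Cpe lay between -0.05 and 0.02 in all 3.

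Other genes of the pathway were taken from lists, and their counts stand beside 1.96 to 17.1% of all genes called, 1.12 to 9.71% lowered and 0.664 to 7.44% raised in the 12 genotype comparisons with all libraries. Of 17 further processing enzymes, 0 or 1 were lowered and 0 to 4 raised in the 12 genotype comparisons, with a median log2 change between 0.00 and 0.09. Ece2, an endothelin-converting enzyme that also cleaves neuropeptides, was called higher in zQ175 in 10 of 12 (0.30 ± 0.05 in untreated 6[4]10 mice, edgeR adjusted p = 3.43e-05), and the aminopeptidase gene Rnpep in 7, or 8 without the library with striatal markers (0.30 ± 0.06, 9.78e-05). Of 35 genes of dense-core vesicle assembly, transport and release, 2 to 6 were lowered and 0 to 4 raised, or 5 without that library. Sort1, a sorting receptor, and Syt7, a calcium sensor of vesicle fusion, were called lower in 11 of 12 each (-0.34 ± 0.05 and -0.39 ± 0.05 in untreated 6[4]10 mice), and Snap25, of the fusion machinery, in 9, or 10 without the library (-0.19 ± 0.04). Rab27a, a GTPase of secretory vesicle docking, was called higher in 6.

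Some listed precursors of neuropeptides and secreted factors were lowered as well. Of 38 listed, 24 to 28 passed the filter on low counts, and 0 to 9 were lowered against 0 or 1 raised, or 2 without the library with striatal markers. In untreated 6[4]10 mice proenkephalin (Penk) had a log2 change of -1.20 ± 0.15 (edgeR adjusted p = 2.72e-08), the growth factor precursor Bdnf -0.47 ± 0.08 (7.95e-06), prodynorphin (Pdyn) -0.57 ± 0.11 (7.85e-05) and Vip -0.36 ± 0.08 (0.00185). In untreated 2.6[8]10 mice Penk was not called with all libraries but was at -1.45 ± 0.12 (1.31e-14) without that library. Of 27 activity-regulated genes, 0 to 17 were lowered and 0 raised. Ptgs2, the inducible cyclooxygenase, was called lower in 10 of 12 (-0.78 ± 0.11 in untreated 6[4]10 mice), or 11 without the library. Of 11 genes of the CREB pathway, 0 to 2 were lowered and 0 to 2 raised, and Atf4 was called lower in 6 (-0.15 ± 0.04, 0.00657, in untreated 6[4]10 mice).

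Markers of hippocampal neurons and, in part, of other cells were lower in zQ175 beside Chgb. The summed level of 8 dentate granule cell markers in untreated 6[4]10 mice ran from 585 to 730 CPM (median 659) in WT and from 423 to 585 (median 501) in zQ175, and that of 7 CA1 pyramidal cell markers from 643 to 827 (median 686) and 522 to 635 (median 558). The 9 CA3 and CA2 markers summed to 428 to 454 (median 440) and 353 to 415 (median 373), and the 9 pan-neuronal markers to 6176 to 6918 (median 6603) and 5873 to 6370 (median 6023). In these mice 3 of 8, 3 of 7, 4 of 9 and 5 of 9 of these markers were called lower and none higher, where 6.19% of all genes were lowered. So were 4 of 11 interneuron markers (summed 1014 to 1153 CPM in WT and 908 to 1076 in zQ175) and 2 of 7 astrocyte markers (2147 to 2350 and 1959 to 2340), but 0 of 7 oligodendrocyte and 0 of 8 endothelial and mural markers. Over the 12 comparisons 0 to 6 interneuron, 0 to 5 astrocyte, 0 to 4 oligodendrocyte and 0 to 5 endothelial and mural markers were called lower, and of 7 pituitary and hypothalamus markers 0 to 3. With all libraries, 0 to 3 oligodendrocyte, 0 to 2 endothelial and mural, and 0 or 1 pituitary and hypothalamus markers were called higher. So were 0 or 1 dentate granule cell and 0 or 1 CA1 markers, but no interneuron or astrocyte marker. Without the library with striatal markers, 0 to 2 pan-neuronal markers were called higher. Over the 12 comparisons Wfs1 (CA1) and Bok (CA3) were called lower in 12 each, and both were picked after their values were seen. Of their whole lists, 1 to 4 of 7 CA1 and 1 to 5 of 9 CA3 and CA2 markers were called lower with all libraries. The part that these markers' cells play in the change of Chgb, Pcsk2 and Cpe was not tested. No microglial marker was called lower in any comparison, and 0 to 7 of 9 were called higher.

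The genes whose levels went most closely with each member were read as Pearson's r of log2 CPM over mice after subtracting each regimen's mean, among 13144 genes. The values are a description, since mice share genotype, library depth and tissue composition. Over all 192 libraries Chgb went with Kalrn (r = 0.90), Brinp1 (0.89) and Bok (0.88), and over 191 without the library with striatal markers with Neurod6 (0.92), Brinp1 (0.91) and Kalrn (0.90). Pcsk2 went with Rasgrp1 in both (0.84 and 0.86). Cpe went with Plpp3 (0.82 and 0.84) and Slc1a2, the astrocyte glutamate transporter gene (0.77 and 0.78). For Scg2 the list depended on that library: Rgs8 (0.79), Plcb1 (0.77) and Dlx6os1 (0.75) with it, and Ap2b1, Clec16a and Nrcam (0.75 each) without. Vgf had Ina (0.75), Adgrb1 (0.73) and Agpat1 (0.72) over 191 libraries, Chga had Stmn3 and Tubb3 (0.69 each) below 1500009C09Rik (0.70), Pcsk1n had Scaf1 (0.78), and Scg5 (Bend6, 0.73), Pcsk1 (Arhgap26, 0.68) and Scg3 (Ntm, 0.64) followed. Among the members themselves, Chgb and Cpe had r = 0.79 over 192 and 0.78 over 191 libraries, Chgb and Pcsk2 0.61 and 0.74, Chga and Vgf 0.64 in both, and Chgb and Scg5 -0.43 and -0.40.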

How the data were processed

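RNA-seq of hippocampus from 192 mice was used as deposited. Per the submitters' processing notes, the authors estimated expected counts per gene with RSEM on GRCm38; the deposited counts are whole numbers, and neither the aligner nor a version or annotation release is named, so these remain not given in the sources used here. Of 41128 gene identifiers, 40254 were found in GENCODE vM21; 7 features that name no gene, with 6.85e-06 percent of counts, were left out. Each regimen (64 libraries) was fitted by group and sex with edgeR 4.0.16 (filterByExpr, TMM, quasi-likelihood test) in R 4.3.3, and p-values were adjusted over all genes tested (Benjamini-Hochberg). A gene was called at an adjusted p under 0.05. CPM values are scaled by TMM. Ratios, with 0.5 added to each count, were tested by exact permutation in Python 3.11.15. DESeq2 1.42.0, limma 3.58.1 (voom, with the number in the library name as a random block), other scaling, no filter, a replicate block and left-out replicates were tried as alternatives. Pathway genes named are up to 4 per list and comparison with the smallest adjusted p, plus those called in most comparisons, which were chosen after their values were seen. The 10 genes and all lists were chosen with earlier results of these data known. Replicates are separate mice, per the labels. The scripts were tested on simulated data.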

Additional observations from a re-analysis of the deposited data

Results flagged for a closer look

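In 240 sets of 8 mice (10 genes in 24 groups), 14 had an extreme mouse whose gap to its neighbour, as a share of the group's range, passed Dixon's 95% limit for 8 values. Chance flags about 1 in 20 groups. The WT HTT-10150 mouse female_1 of 2.6[8]10, the library with striatal markers, gave 5 of the 14: Chgb was lowest at 290 CPM (next 643, share 0.741), Scg2 highest at 325 (183, 0.842), Scg5 highest at 178.1 (144.55, 0.685), Pcsk2 highest at 382 (285, 0.827) and Cpe lowest at 1928 (2539, 0.715).

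The other 9 came from 9 mice. For Chgb, male_2 of WT HTT-634.486 in 2.6[8]10 was highest at 889 CPM (next 757, share 0.554) and male_4 of untreated zQ175 in 2[4]6 highest at 576 (474, 0.658). For Scg2, male_2 of WT HTT-10150 in 2[4]6 was lowest at 147.1 (178.1, 0.562), male_3 of zQ175 HTT-10150 in 2[4]6 lowest at 160 (173, 0.538) and male_4 of zQ175 HTT-634.486 in 6[4]10 highest at 177 (143.85, 0.707). Pcsk1 was highest at 16.7 (11.3, 0.595) in female_3 of untreated WT in 2[4]6. Pcsk1n was lowest at 267 (409, 0.722) in male_2 of untreated zQ175 in 2[4]6 and highest at 665 (512.5, 0.602) in male_2 of WT NTC in 6[4]10. Cpe was highest at 2635 (2499, 0.568) in male_2 of untreated zQ175 in 6[4]10.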

How the results depend on the processing

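The 44 calls of a gene in a comparison gave 480 values under alternatives: 396 kept direction and call, 84 kept direction and lost the call, and 0 reversed. Of 481 alternative counts of genes called, 439 stayed within 1.5 times and 42 moved. A count of 0 that stayed 0 is among the 439. Outside the zQ175 against WT comparisons and sex in 2[4]6 every main count was 0, so the 439 say little about the counts above 0. Without a filter on low counts the count was 1 under HTT-634.486 and 1 under HTT-10150 in 2[4]6, and 2 in untreated 2.6[8]10 mice. With only the compared groups fitted it was 1 and 1 in those 2[4]6 comparisons, and in 2.6[8]10 5 with NTC, 3 under HTT-634.486, 0 under HTT-10150 and 2 for HTT-634.486 against NTC in zQ175. Without the library with striatal markers, chosen after seeing the data, these 2.6[8]10 counts were 5, 3, 2 and 2 (15.1%, 4.54%, 7.92% and 4.36% of all genes called). For the other alternatives, here and above, the share of all genes called is not given. A change of count under them therefore cannot be read as particular to these genes. DESeq2, and limma-voom with the library-name number as a random block, gave 2 for HTT-634.486 against NTC in zQ175, and the latter, in which tool and block changed together, gave 1 for NTC against untreated in zQ175 and 1 for HTT-10150 against NTC in WT, all in 2.6[8]10. Leaving out 1 replicate number at a time (2 mice per group), the zQ175 against WT counts ranged from 2 to 3, 1 to 2, 1 to 2 and 1 to 2 in 2[4]6 (untreated, NTC, HTT-634.486, HTT-10150), from 3 to 4, 3 to 6, 4 to 5 and 4 to 5 in 6[4]10, and from 1 to 3, 2 to 4, 0 to 3 and 2 to 4 in 2.6[8]10. They ranged from 0 to 1 for sex in 2[4]6, HTT-10150 against HTT-634.486 in 2[4]6, and, in 2.6[8]10, HTT-634.486 against NTC in zQ175 and HTT-10150 against NTC in WT. The cause was not tested, beyond the smaller number of mice. The Scg5 to Pcsk2 ratio kept its direction and side in all alternatives. Replicate numbers did not pair mice (mean correlation of same-numbered deviations 0.025, 0.047 and 0.056). With the replicate block the count was 5 with NTC in 2.6[8]10 and 1 for HTT-634.486 against NTC in zQ175 there, no call was lost, and 6 pairs were gained. Pcsk1 had as few as 64 counts in a library, and the part of depth in its spread was not tested.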
